A study of Mus musculus with 12 samples.

Results

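The mitochondrial respiratory chain was followed as 96 genes of 18193 on the array: those whose platform symbol begins with Nduf, with Sdh and a letter of a to d, with Uqcr, with Cox and a subunit number of 4 to 8, or with Atp5, together with Cycs, Cyc1, Ppargc1a, Ppargc1b, Tfam and Nrf1. Symbols alone chose the members, and a gene with several probe sets was read from its brightest. Of the 96 members, 89 were bright enough to be tested, among 10916 genes in all. The other 7 (Ndufb4, Ndufa4l2, Cox4i2, Cox6b2, Cox7a1, Cox7b2 and Cox8b) had a mean log2 value below 5.98, the limit under which the dimmest 40% of genes were left out. The 89 comprised 33 subunits of complex I, 8 complex I assembly factors, 4 subunits of complex II, 9 of complex III, 13 of complex IV, 17 of complex V, cytochrome c and 4 regulators. By symbol Ndufa4 stands with complex I, but its protein belongs to complex IV, and it was counted there.

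The cells were B16-F10, an established melanoma line of the mouse, and those positive for EGFP had been sorted 24 h after they were transfected. They had received FoxD3-VP16, in which an activation domain of the viral protein VP16 replaces the C-terminal repression domain of FoxD3, or intact FoxD3, or the empty vector pMES, with 4 arrays numbered 1 to 4 in each group. Both coding sequences are of chicken FoxD3, a forkhead transcription factor of the neural crest, and all 3 plasmids carry the chick beta-actin promoter and make EGFP through an internal ribosome entry site, so each group, the empty vector included, was transfected and sorted alike. Nothing in the labels says that arrays of a group stem from separate cultures, and p-values therefore cover the spread among these arrays alone, possibly a technical one; expression is transient and the level of the transgenes was not measured here. The markers tested of melanocytes, the labelled origin of the line, all lay above the dim limit (7 of 7), with summed intensities of 160000 to 176600 in FoxD3-VP16 cells, 157300 to 167300 in FoxD3 cells and 174800 to 194300 in empty-vector cells.

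Complexes I to IV pass electrons from NADH and succinate to oxygen, and complexes I, III and IV pump protons across the inner mitochondrial membrane. Complex V, the ATP synthase, uses the returning protons to make ATP. Nearly all of their subunits are encoded in the nucleus. Nrf1 and members of the ETS family bind the promoters of many of these genes, and Tfam packages mitochondrial DNA and acts in its transcription. The coactivators encoded by Ppargc1a and Ppargc1b raise the activity of such transcription factors. In melanoma cells Ppargc1a is known as a gene activated by MITF, the regulator of pigment cell genes.

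Most subunits had small positive differences with either transgene. The coactivators had large and opposite ones between the transgenes, and neither was called in FoxD3-VP16 against empty vector. With FoxD3-VP16 set against FoxD3, Ppargc1a was 2.64-fold higher and Ppargc1b 2.44-fold lower, and these were the members called in the test without a block. No subunit was called in that test in any comparison. Once the replicate number entered the fit as a block, 10 or 11 members were called in each comparison, most of them upward and by less than 0.5 on the log2 scale. In FoxD3-VP16 against FoxD3 these were 8.99% higher and 3.37% lower, beside 14.6% and 17.5% of all tested genes. The shares were 11.2% and 0% beside 5.73% and 5.41% in FoxD3-VP16 against empty vector. In FoxD3 against empty vector they were 8.99% and 3.37% beside 11.8% and 9.21%.

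A start region of Ppargc1a is shown because this gene had the largest member change in FoxD3-VP16 against FoxD3 and in FoxD3 against empty vector. Those of Tfam and Cycs are shown because they carry the motifs of the known regulators of respiratory chain genes. The sequences are from RefSeq on GRCm38.p6 and run 5′ to 3′ on the gene's strand, from 250 bases before to 50 bases after the transcript start; capitals mark the motifs named after them. The windows lie at chr5:51567676-51567975 on the minus strand for Ppargc1a, chr10:71237995-71238294 on the minus strand for Tfam and chr6:50566520-50566819 on the minus strand for Cycs. Ppargc1a as annotated spans chr5:51454249-52115853, so its window lies inside the gene, and no start further 5′ was searched.
Ppargc1a: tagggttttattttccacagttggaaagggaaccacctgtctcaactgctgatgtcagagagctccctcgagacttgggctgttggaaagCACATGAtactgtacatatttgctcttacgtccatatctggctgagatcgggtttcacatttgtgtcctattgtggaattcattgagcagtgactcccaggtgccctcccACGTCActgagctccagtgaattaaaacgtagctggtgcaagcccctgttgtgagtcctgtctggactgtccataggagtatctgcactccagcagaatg
Tfam: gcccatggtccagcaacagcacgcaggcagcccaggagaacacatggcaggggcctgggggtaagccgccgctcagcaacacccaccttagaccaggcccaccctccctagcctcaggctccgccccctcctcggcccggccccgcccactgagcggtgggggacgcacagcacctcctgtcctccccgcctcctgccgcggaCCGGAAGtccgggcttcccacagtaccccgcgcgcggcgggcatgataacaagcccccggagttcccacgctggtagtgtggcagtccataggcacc
Cycs: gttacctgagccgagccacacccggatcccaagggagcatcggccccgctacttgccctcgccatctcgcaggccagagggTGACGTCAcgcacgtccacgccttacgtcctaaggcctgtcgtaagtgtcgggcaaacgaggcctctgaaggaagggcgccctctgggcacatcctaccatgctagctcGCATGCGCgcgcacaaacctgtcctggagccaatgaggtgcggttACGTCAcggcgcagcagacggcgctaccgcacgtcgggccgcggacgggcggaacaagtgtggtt
In Ppargc1a the capitals mark an M-box of MITF (TCATGTG, found as CACATGA), which begins 160 bases before the start, and a CRE core (ACGTCA), which begins 50 bases before it. In Tfam they mark the ETS motif that GABPA binds (CCGGAAG, 47 bases before the start). In Cycs they mark the NRF1 motif (GCATGCGC, 60 bases before the start), a CRE core 15 bases before it, and a pair of overlapping CRE cores on opposite strands.

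Over all the members, 78 of 96 had a window in the table, 84 windows in all, and each motif was searched for on both strands. The NRF1 motif was present in 14.3% of the members' windows, against 2.71% of all 32851 windows; its 12 genes included Cycs, Sdhb, Uqcr11, Atp5k, Atp5l and Ndufa6. CCGGAAG was present in 23.8% of the members' windows and 8.86% of all windows, in 20 member genes that included Tfam, Uqcrh, Sdhd, Atp5md and Cox6b1. ACGTCA was present in 13.1% and 7.51%. Among member genes the M-box was found in Ppargc1a alone (1.19% of the members' windows, 3.77% of all), and the E-box of MITF (TCACGTG) in Atp5l, Ndufa7 and Ndufv1 (4.76% and 3.77%). A forkhead motif (TGTTTAC) was present in 2.38% of the members' windows, those of Cox7a2 and Ndufaf1, and in 3.65% of all. These are matches of letters, not measured binding.

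Ppargc1a encodes the transcriptional coactivator best known for driving mitochondrial biogenesis in muscle and brown fat. Its log2 values, of log2(intensity + 16) after quantile normalization like all values here, were 10.76, 10.35, 11.20 and 11.01 on FoxD3-VP16 arrays 1 to 4. They were 8.89, 8.88, 10.07 and 9.87 on the FoxD3 arrays, and 9.87, 9.97, 11.34 and 11.28 on the empty-vector arrays. Every FoxD3 array lay below every FoxD3-VP16 array, whereas the FoxD3 and empty-vector arrays overlapped because arrays 3 and 4 were brighter than 1 and 2 in each of these groups.

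FoxD3-VP16 minus FoxD3 came to 1.40 for Ppargc1a (SE 0.38, limma adjusted p = 0.0368), positive in 4 of 4 same-numbered pairs. FoxD3 minus empty vector was -1.19 (SE 0.38, limma adjusted p = 0.116), or 2.28-fold lower, and negative in 4 of 4 pairs. Without FoxD3 array 1 it was -0.43 (limma adjusted p = 0.822), or -0.81 with the block (adjusted p = 0.00864). A pseudocount of 64 gave -0.83 (adjusted p = 0.604). In these settings the probe set second in brightness stood for the gene, and over all arrays that probe set gave -0.87. The part of FoxD3 array 1 was thus not separated from that of the probe set. Over all arrays the block lowered the error of both differences, FoxD3-VP16 minus FoxD3 and FoxD3 minus empty vector, to 0.16. Their adjusted p was then 2.55e-05 and 0.000191, which called the fall with FoxD3. FoxD3-VP16 minus empty vector was 0.21, with a 95% interval of -0.62 to 1.04, and was called in neither fit (adjusted p = 0.945 without the block and 0.412 with it). All 5 probe sets of the gene had the same sign in each comparison: FoxD3-VP16 minus FoxD3 lay between 1.08 and 1.75, FoxD3-VP16 minus empty vector between 0.07 and 0.51, and FoxD3 minus empty vector between -1.42 and -0.74. Without the block the call of FoxD3-VP16 against FoxD3 held in 9 of 22 alternatives. It ended with values as deposited (limma adjusted p = 0.0507), a pseudocount of 64 (0.234) and the mean of all probe sets (0.144). The same was so with only the 8 arrays compared (0.165) and without the arrays numbered 1 (0.179). Leaving out FoxD3-VP16 array 3 or 4 or FoxD3 array 2 or 4 ended it as well. The limma adjusted p was then 0.0527 to 0.108. The call also ended without FoxD3-VP16 array 1, FoxD3 array 1 or empty-vector array 1 or 2. In those settings the probe set second in brightness stood for the gene. There the adjusted p was up to 0.461, with a difference of 0.94, without FoxD3 array 1. With the block, leaving out any of the 12 arrays kept the call, with an adjusted p of up to 0.000248.

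Mitf, whose known binding motif is among those marked above, had the signs of Ppargc1a where FoxD3 cells were compared. FoxD3-VP16 minus FoxD3 was 0.66 (limma adjusted p = 0.0389) and FoxD3 minus empty vector -1.09 (limma adjusted p = 0.00483). In FoxD3-VP16 minus empty vector the signs were opposite, -0.43 for Mitf (adjusted p = 0.436, and 0.0282 with the block) and 0.21 for Ppargc1a. Whether the levels of Mitf and Ppargc1a are connected was not tested.

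**Figure D1:**
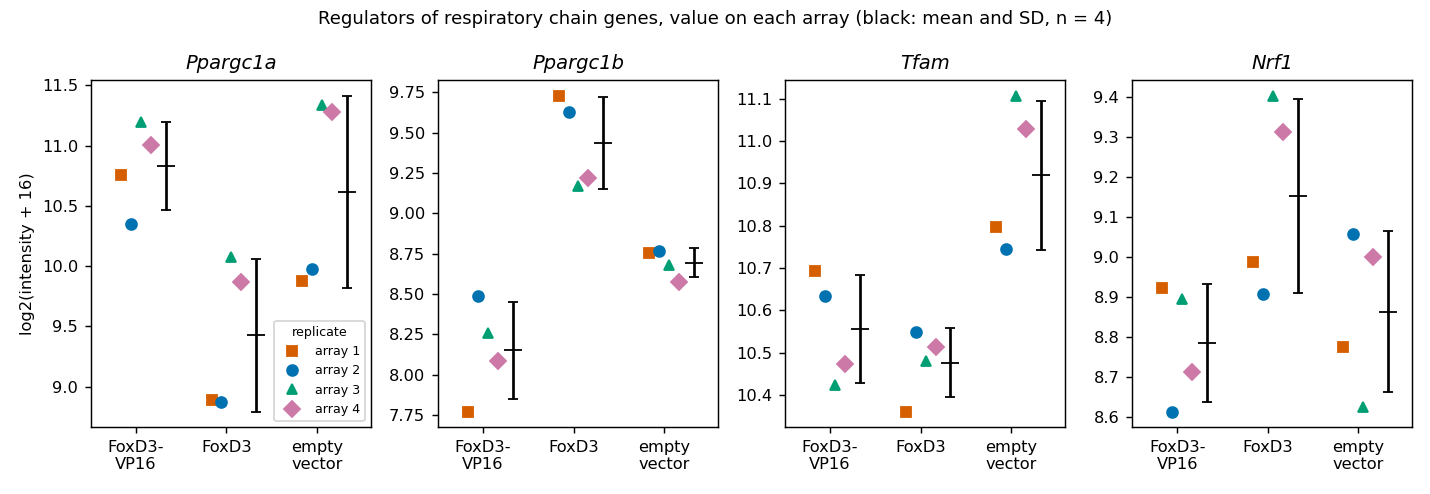
Values of the 4 regulators on each array, as log2(intensity + 16), in FoxD3-VP16, FoxD3 and empty-vector cells; symbols give the replicate number and black bars the mean and SD (n = 4). Ppargc1a is lowest and Ppargc1b highest in FoxD3 cells, and Tfam is highest in empty-vector cells.

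Ppargc1b, the close relative of Ppargc1a with an overlapping set of partner factors, moved the other way. Its log2 values were 7.77, 8.49, 8.26 and 8.09 in FoxD3-VP16 cells, against 9.73, 9.63, 9.17 and 9.22 in FoxD3 cells and 8.76, 8.77, 8.68 and 8.57 in empty-vector cells. The 3 groups did not overlap: every FoxD3 array was brightest and every FoxD3-VP16 array dimmest. FoxD3-VP16 minus FoxD3 was -1.28 (SE 0.19, limma adjusted p = 0.00121), and this call held in all 38 alternative settings tried. FoxD3 minus empty vector was 0.74 (SE 0.19, limma adjusted p = 0.0527), or 1.67-fold higher, and was called with the block (adjusted p = 0.0078). For FoxD3-VP16 against the empty vector the difference of -0.54 passed neither fit (adjusted p = 0.321, and 0.0558 with the block). A single probe set measured this gene, so no second reading was at hand.

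Tfam, the factor that coats mitochondrial DNA and acts in its transcription, was dimmer with both transgenes. It had log2 values of 10.69, 10.63, 10.42 and 10.47 in FoxD3-VP16 cells, against 10.36, 10.55, 10.48 and 10.51 in FoxD3 cells and 10.80, 10.74, 11.11 and 11.03 in empty-vector cells. No array of either transgene reached the lowest empty-vector array. FoxD3 minus empty vector was -0.44 (SE 0.13, limma adjusted p = 0.0847), called with the block (adjusted p = 0.014). FoxD3-VP16 minus empty vector was -0.36 (adjusted p = 0.328, and 0.0554 with the block). The dimmer of the gene's 2 probe sets had the same sign for FoxD3-VP16 minus empty vector (-0.65) but not for FoxD3 minus empty vector (0.11). For FoxD3-VP16 minus FoxD3 the brighter probe set gave 0.08 and the dimmer -0.75.

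Nrf1, whose protein binds the motif marked in Cycs, was called in neither fit of any comparison. Its log2 values were 8.92, 8.61, 8.90 and 8.71 in FoxD3-VP16 cells, 8.99, 8.91, 9.40 and 9.31 in FoxD3 cells, and between 8.62 and 9.06 in empty-vector cells. FoxD3-VP16 minus FoxD3 was -0.37 (95% interval -0.74 to 0.01) and FoxD3 minus empty vector 0.29 (-0.09 to 0.66), with the groups overlapping in each. The other 3 probe sets of Nrf1 gave FoxD3 minus empty vector between -0.18 and 0.11.

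The subunits themselves differed little between the vectors, and mostly in one direction. With FoxD3-VP16 against the empty vector, 74 of 89 members had a positive log2 change and the median change was 0.12, beside 47.06% of all tested genes positive and a median of -0.02. With FoxD3 against the empty vector 64 of 89 were positive and the median was 0.06, beside 49.43% and -0.00 for all genes. FoxD3-VP16 minus FoxD3 was positive in 60 members, with a median of 0.06, beside 47.11% and -0.03. In sorted bulk samples a smaller share of some cells and less RNA per cell cannot be told apart. Any pair of these comparisons shares the arrays of a group, so the medians are not independent.

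The median absolute log2 change of the members was 0.138 with FoxD3-VP16 and 0.0977 with FoxD3, each against the empty vector, and 0.0989 between the transgenes, and over all genes, most of them dimmer, it was 0.192, 0.226 and 0.268. At a mean log2 value of at least 12, a limit chosen after seeing the data, it was 0.127, 0.080 and 0.0707 for 64 members, beside 0.124, 0.115 and 0.144 for all 1149 genes so bright, so the members' value was not the smaller one in FoxD3-VP16 against empty vector. Leaving out the 4 regulators, 2 of 85 subunits, cytochrome c and assembly factors exceeded 0.5 in FoxD3-VP16 against empty vector, 1 in FoxD3-VP16 against FoxD3 and 0 in FoxD3 against empty vector. By replicate number 1, 2, 3 and 4 the median FoxD3-VP16 minus empty vector difference was 0.03, 0.05, 0.16 and 0.19. The same medians for FoxD3 minus empty vector were 0.04, 0.04, 0.13 and 0.04. All 8 of these medians were positive, and the largest came from numbers 3 and 4.

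Respiratory chain transcripts are bright: member means ran from 6.59 to 15.12 with a median of 12.75. Among the 1149 tested genes with a mean of at least 12, 49.52% were positive in FoxD3-VP16 against empty vector and 50.04% in FoxD3 against empty vector. Of the 64 members above that limit, 95.31% were positive in FoxD3-VP16 against empty vector and 78.12% in FoxD3 against empty vector. A change in the same direction in all 4 same-numbered pairs was found upward in 35 members and downward in 3 for FoxD3-VP16 against empty vector, where 14.3% and 15.1% of all tested genes did so. For FoxD3 against empty vector the members were 31 upward and 9 downward (21.1% and 20.1% of all genes), and for FoxD3-VP16 against FoxD3 27 and 12 (23.6% and 27.2%). These counts carry no test.

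**Figure D2:**
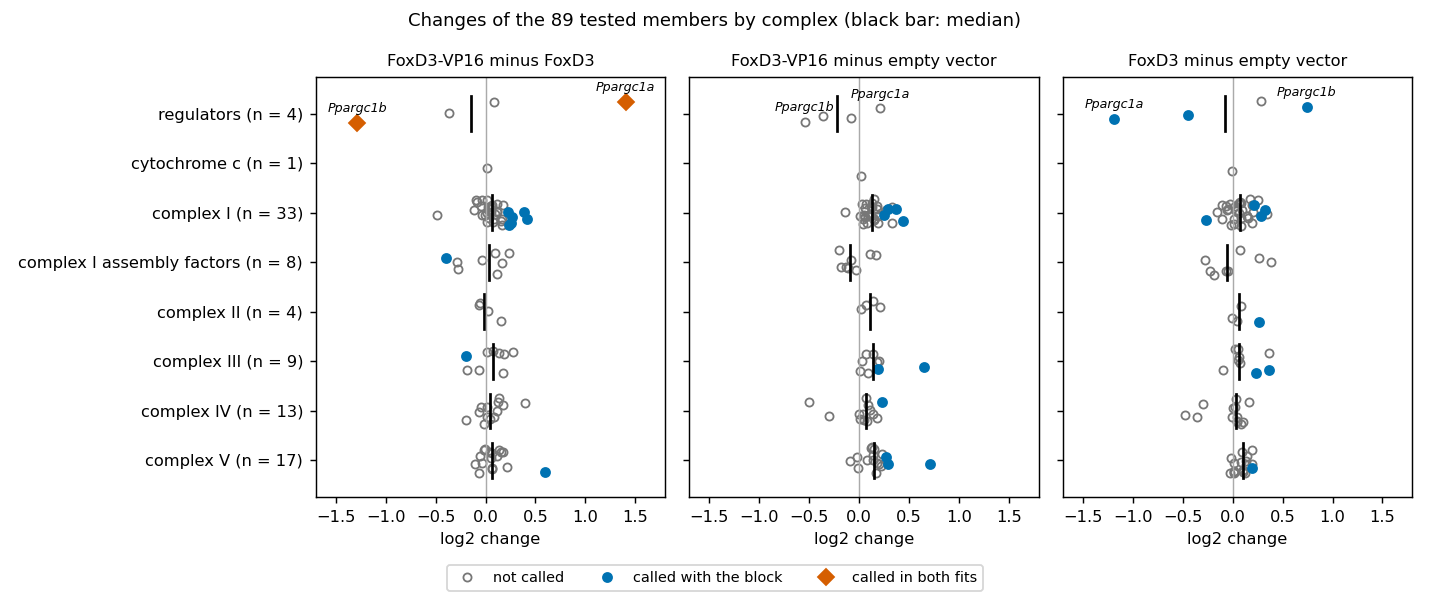
Log2 change of each of the 89 tested members by complex, in FoxD3-VP16 minus FoxD3, FoxD3-VP16 minus empty vector and FoxD3 minus empty vector. Filled blue points were called with the replicate block alone, orange diamonds in both fits, open points in neither, and black bars are medians. Most subunits lie just right of 0. Ppargc1a and Ppargc1b lie far out on opposite sides in FoxD3-VP16 minus FoxD3 and in FoxD3 minus empty vector. In FoxD3-VP16 minus empty vector they lie nearer to 0, at 0.21 and -0.54.

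The limma test without the block (adjusted p under 0.05) called 0 members higher and 0 lower in FoxD3-VP16 against empty vector. Of all tested genes it called 0.522% higher and 0.0733% lower. An unadjusted p under 0.05 was found for 5 of 89 members, beside 1129 of 10916 genes. For FoxD3 against empty vector the test also called 0 and 0 members (2.89% and 1.12% of all genes). There 6 of 89 members had an unadjusted p under 0.05, beside 1762 of 10916 genes. The members' share was the smaller in both comparisons. For FoxD3-VP16 against FoxD3 the same test called 1 higher and 1 lower (4.44% and 5.13% of all genes), the coactivators described above. With the replicate number as a block, limma called 10 members higher and 0 lower in FoxD3-VP16 against empty vector (5.73% and 5.41% of all genes). It called 8 higher and 3 lower in FoxD3 against empty vector (11.8% and 9.21%), and 8 higher and 3 lower in FoxD3-VP16 against FoxD3 (14.6% and 17.5%). Of 89 members, 10 is 11.2% and 8 is 8.99%, so the share called higher was above that of all genes in the comparison of FoxD3-VP16 with the empty vector and below it in the other two.

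The members varied more with the replicate number than with the vector. Number took 72.3% of their sum of squares over the 12 arrays and vector 17.3%, beside 50.1% and 30.8% over all tested genes. Vector outweighed number in 15 members, among them all 4 regulators. The 3 arrays numbered 1 lay below all 9 others in 35 members and above all 9 in 12, where 14.4% and 12.5% of all tested genes did so. Relative to the other 9, those arrays stood at -1.66 for Ndufs5 and -1.27 for Ndufs8 of complex I, and at 1.00 for Cox7c of complex IV. These 3 arrays also had the brightest hybridization controls (14.5 to 14.7, against 11.8 to 13.1 on the other 9) and the largest excess of 3′ over 5′ signal for Gapdh (0.56 to 0.77, against -0.25 to 0.04); the part of these measures in the members' values was not tested. Without them, an alternative chosen after seeing the data, the median change was 0.12 for FoxD3-VP16 against empty vector and 0.07 for FoxD3 against empty vector.

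**Figure D3:**
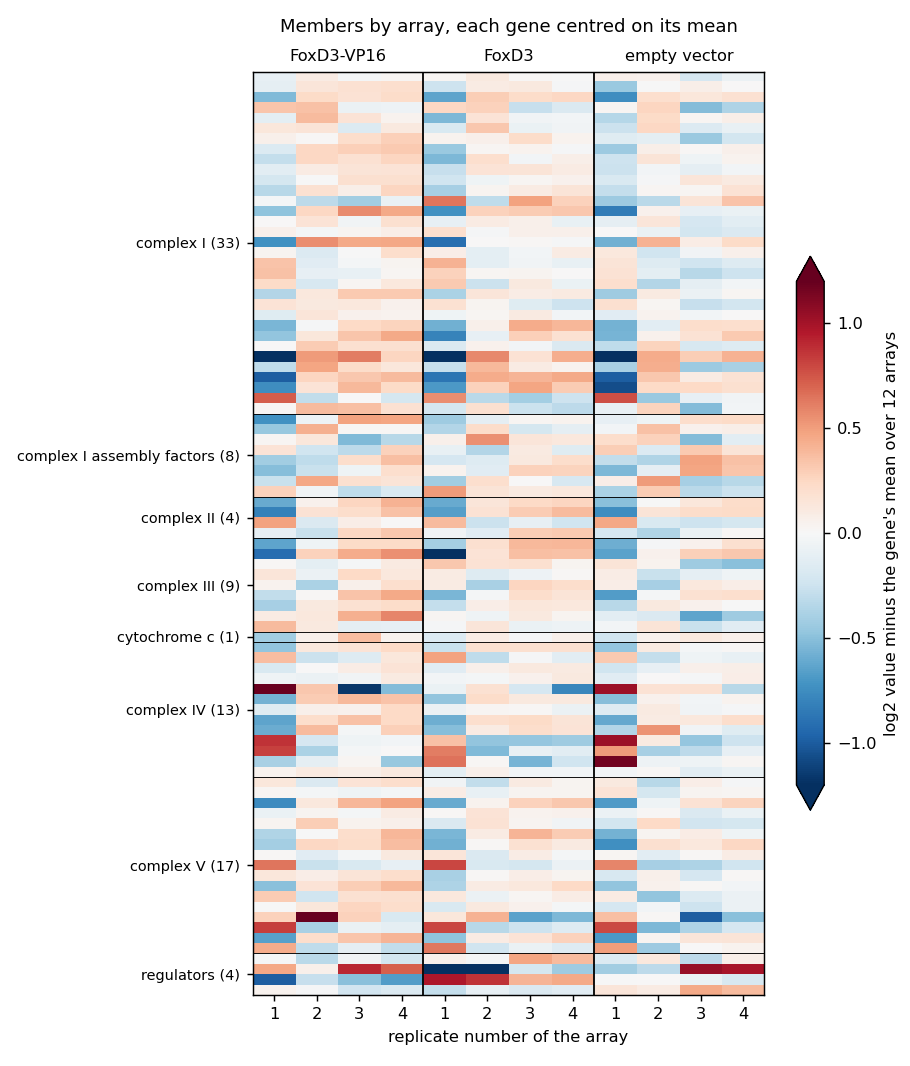
Deviation of each of the 89 tested members from its mean over the 12 arrays, in log2 units, with arrays 1 to 4 of FoxD3-VP16, FoxD3 and empty vector from left to right and genes grouped by complex from top to bottom. The column numbered 1 stands apart in every group, low in many subunits of complexes I to V and high in others, whereas the regulators at the bottom follow the vector.

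Complex I, the NADH dehydrogenase and entry point of electrons, had 32 of 33 subunits positive in FoxD3-VP16 against empty vector and 24 in FoxD3 against empty vector. Ndufa5, an accessory subunit, had log2 values of 12.86, 12.82, 13.02 and 13.09 in FoxD3-VP16 cells, 12.85, 12.87, 13.02 and 12.85 in FoxD3 cells and 12.66, 12.69, 12.36 and 12.59 in empty-vector cells. Every array of either transgene was above every empty-vector array. The difference was 0.37 with FoxD3-VP16 (adjusted p = 0.233 without and 0.0208 with the block) and 0.32 with FoxD3 (adjusted p = 0.158 and 0.0227), and its second probe set gave 0.41 and 0.28. Ndufb10, of the membrane arm, was also called with the block against the empty vector in both cases, by 0.44 with FoxD3-VP16 (adjusted p = 0.00915) and 0.29 with FoxD3 (adjusted p = 0.0357); on array 1 it was 10.99, 10.75 and 10.63 in FoxD3-VP16, FoxD3 and empty-vector cells, and on the other arrays 11.38 to 12.04.

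Among the other complex I subunits, Ndufa13 (0.29, adjusted p = 0.0137 with the block) and Ndufa6 (0.24, adjusted p = 0.0269 with the block) were called higher with FoxD3-VP16 than with the empty vector. Ndufb7 was called higher with FoxD3 than with the empty vector (0.21, adjusted p = 0.0441 with the block). Ndufb3, of the membrane arm, had log2 values of 11.57, 12.86, 12.75 and 12.76 in FoxD3-VP16 cells, against 11.39, 12.30, 12.31 and 12.28 in FoxD3 cells and 11.72, 12.71, 12.39 and 12.53 in empty-vector cells. Within each number FoxD3 was the lowest of the 3. With the block it was called 0.27 lower on the log2 scale in FoxD3 cells than in empty-vector cells (adjusted p = 0.0422) and 0.41 higher with FoxD3-VP16 than with FoxD3 (adjusted p = 0.00253). FoxD3-VP16 against FoxD3 also called Ndufv3 (0.38), Ndufa6 (0.27), Ndufs4 (0.25), Ndufa2 (0.23) and the core subunit Ndufs3 (0.22) higher, with adjusted p of 0.00592 to 0.0413 with the block. Of the complex I subunits that neither fit called in any comparison, Ndufb1 differed most, at 0.34 in FoxD3 minus empty vector and -0.48 in FoxD3-VP16 minus FoxD3.

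The 8 complex I assembly factors, which build the complex but are not part of it, lacked the upward majority: 2 of 8 were positive in FoxD3-VP16 against empty vector and 3 in FoxD3 against empty vector. Of them Ndufaf3 was called, 0.40 lower on the log2 scale with FoxD3-VP16 than with FoxD3 (adjusted p = 0.0374 with the block). It had 9.49, 9.60, 8.94 and 9.14 in FoxD3-VP16 cells, against 9.53, 10.02, 9.61 and 9.60 in FoxD3 cells, and it was lower in 4 of 4 pairs. Ndufaf8 had the largest FoxD3 minus empty vector difference of the assembly factors, 0.39, called in neither fit (adjusted p = 0.0682 with the block), and Ndufaf4 stood at -0.27 (adjusted p = 0.126 with the block).

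Complex II, succinate dehydrogenase, links the citric acid cycle to the chain. Its catalytic subunits differed by at most 0.08 between either transgene and the empty vector: Sdha, the flavoprotein, by 0.07 with FoxD3-VP16 and 0.05 with FoxD3, and Sdhb, the iron-sulfur subunit, by 0.02 and 0.08. The membrane anchor Sdhd had 12.02, 11.85, 12.37 and 12.44 in FoxD3-VP16 cells, 12.07, 11.98, 12.41 and 12.43 in FoxD3 cells and 11.91, 11.75, 12.04 and 12.13 in empty-vector cells. It was the member of complex II called with the block, 0.26 higher with FoxD3 than with the empty vector (adjusted p = 0.0193), while FoxD3-VP16 minus empty vector was 0.21 (adjusted p = 0.078). The other anchor, Sdhc, gave 0.14 and -0.01.

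Complex III passes electrons from ubiquinol to cytochrome c, and all 9 of its members were positive in FoxD3-VP16 against empty vector. Uqcrh, the hinge protein that contacts cytochrome c1, had log2 values of 12.48, 12.51, 12.81 and 12.97 in FoxD3-VP16 cells, 12.40, 12.33, 12.50 and 12.42 in FoxD3 cells, and 12.26, 12.21, 11.75 and 11.96 in empty-vector cells. All arrays of both transgenes exceeded all empty-vector arrays. FoxD3-VP16 minus empty vector was 0.65 (SE 0.15, adjusted p = 0.0813 without and 0.00743 with the block), or 1.57-fold, and the gene's second probe set gave 0.48. FoxD3 minus empty vector was 0.37 (adjusted p = 0.222, and 0.0559 with the block). Uqcrb, the subunit that binds ubiquinone, was called with the block at 0.19 with FoxD3-VP16 (adjusted p = 0.0294).

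Cyc1, the cytochrome subunit of complex III, was called in 2 comparisons with the block: 0.23 higher with FoxD3 than with the empty vector (adjusted p = 0.0128), and 0.20 lower on the log2 scale with FoxD3-VP16 than with FoxD3 (adjusted p = 0.0182). Its values were 12.78, 13.36, 13.64 and 13.64 in FoxD3-VP16 cells, 13.00, 13.61, 13.80 and 13.81 in FoxD3 cells and 12.83, 13.40, 13.47 and 13.61 in empty-vector cells. Within each number FoxD3 was the highest of the 3, though the groups overlapped. Uqcr11, a small subunit, was called 0.36 higher with FoxD3 than with the empty vector (adjusted p = 0.0426 with the block). Cycs, the mobile carrier between complexes III and IV, differed by 0.02 with FoxD3-VP16 (95% interval -0.31 to 0.35) and by -0.00 with FoxD3 (-0.33 to 0.33) from the empty vector.

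Complex IV, cytochrome c oxidase, has subunits with a general form and a form known from particular tissues. The general forms named next were bright in every group. Apart from Cox6b1 they differed by at most 0.18 from the empty vector with either transgene. Cox4i1 gave 0.10 with FoxD3-VP16 and 0.17 with FoxD3, Cox6a1 0.00 and 0.04, Cox7a2 0.09 and 0.04, Cox8a 0.18 and 0.04, and Ndufa4 0.14 and 0.03. Cox7c, outside these pairs of forms, was dimmer, with a mean of 8.40. It gave 0.04 with FoxD3-VP16 and -0.36 with FoxD3 against the empty vector, the latter positive in 0 of 4 pairs. FoxD3-VP16 minus FoxD3 was 0.40 for Cox7c, positive in 4 of 4 pairs, and neither fit called the gene in any comparison. Cox6b1, which joins the monomers of the dimeric enzyme, was the subunit called with the block, 0.23 higher with FoxD3-VP16 than with the empty vector (adjusted p = 0.0492), positive in 3 of 4 pairs. The call of Cox6b1 held in 5 of 16 alternatives with the block. Its values were 13.70, 14.57, 14.65 and 14.61 in FoxD3-VP16 cells and 13.76, 14.32, 14.23 and 14.31 in empty-vector cells, and without array 1 the groups did not overlap. Of the forms known from particular tissues, Cox4i2, Cox6b2, Cox7a1, Cox8b and Ndufa4l2 lay below the dim limit. Cox6a2 and Cox8c, at 5.42 to 7.78 and 7.04 to 8.75 over the 12 arrays, gave differences from the empty vector of -0.30 and -0.50 with FoxD3-VP16 and -0.48 and -0.30 with FoxD3, called in neither fit.

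Complex V had 14 of 17 subunits positive in FoxD3-VP16 against empty vector and 15 in FoxD3 against empty vector. The small membrane subunits Atp5k and Atp5l, which act in the dimerization of the enzyme, were called with the block in FoxD3-VP16 against empty vector at 0.27 (adjusted p = 0.0367) and 0.29 (adjusted p = 0.0231), and all FoxD3-VP16 arrays of Atp5l exceeded all empty-vector arrays. Atp5md, another small membrane subunit, had log2 values of 11.58, 12.68, 11.58 and 11.12 in FoxD3-VP16 cells, 11.44, 11.73, 10.66 and 10.77 in FoxD3 cells and 11.67, 11.32, 10.32 and 10.80 in empty-vector cells. The groups overlapped, and its within-number differences were uneven: FoxD3-VP16 minus empty vector was -0.09 for number 1 and 1.36 for number 2. The mean difference of 0.71 was the largest of any subunit and was called with the block (adjusted p = 0.0269), as was 0.59 in FoxD3-VP16 minus FoxD3 (adjusted p = 0.0259). Atp5h, of the peripheral stalk, was called 0.19 higher with FoxD3 than with the empty vector (adjusted p = 0.0266 with the block). This call held in 7 of 16 alternatives with the block.

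**Figure D4:**
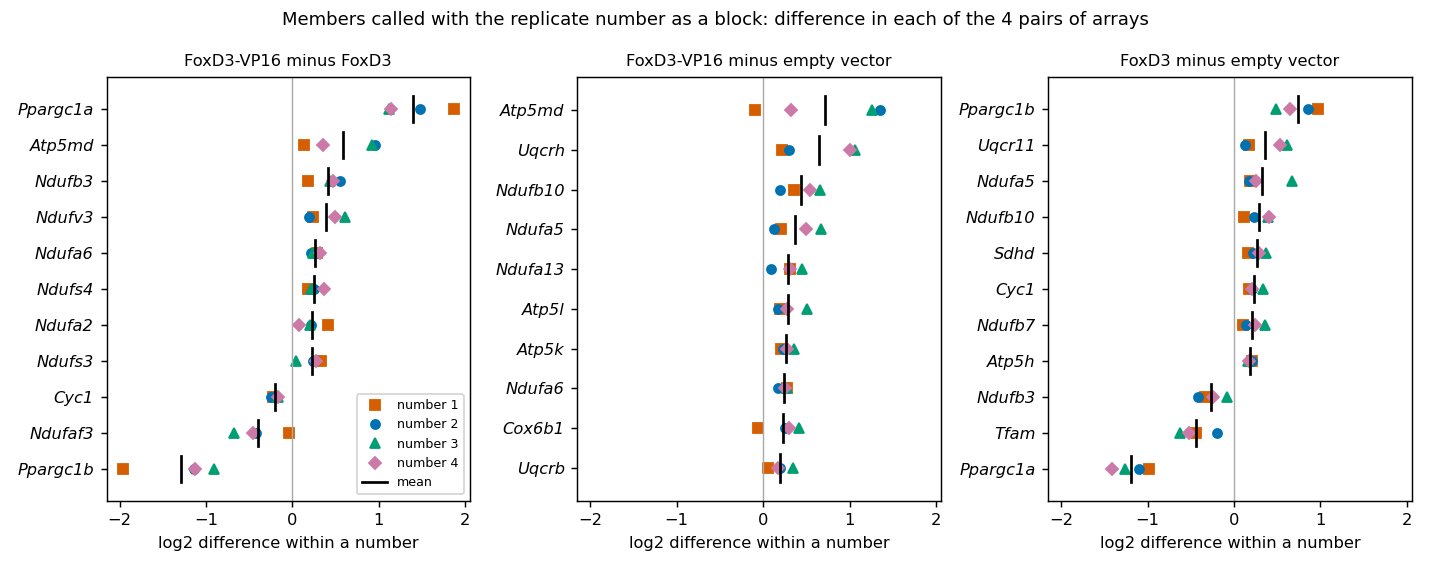
Log2 difference within each replicate number for the members called with the block, in FoxD3-VP16 minus FoxD3, FoxD3-VP16 minus empty vector and FoxD3 minus empty vector; symbols are the 4 numbers and black bars the means. Most genes have all 4 symbols on one side of 0, while Atp5md and Cox6b1 cross it for number 1 in FoxD3-VP16 minus empty vector.

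Genes that support the chain gave mixed directions, counted over lists drawn up with earlier results of these data known and without camera or another set test. For each list the calls with the block can be read against those over all genes, 14.6% higher and 17.5% lower in FoxD3-VP16 against FoxD3, 5.73% and 5.41% in FoxD3-VP16 against empty vector, and 11.8% and 9.21% in FoxD3 against empty vector; in lists of 11 to 22 genes a single gene moves the share by several percentage points. For maintenance of mitochondrial DNA and its transcription, 20 genes were tested; with the block 1 was higher and 7 lower in FoxD3-VP16 against FoxD3, 0 and 3 in FoxD3-VP16 against empty vector, and 3 and 3 in FoxD3 against empty vector. The 7 are 35% of this list, and its median changes were -0.14, -0.22 and -0.01 in that order. Twnk, the mitochondrial DNA helicase, was 0.97 higher with FoxD3 than with the empty vector (limma adjusted p = 0.0129) and 0.82 lower on the log2 scale with FoxD3-VP16 than with FoxD3 (adjusted p = 0.0175), both without the block. Esrra, a nuclear receptor that works with the Ppargc1 coactivators, had 0.66 and -0.82 in those comparisons (adjusted p = 0.0188 and 0.00327 with the block), and Pprc1, the third coactivator of the family, fell by 0.63 with FoxD3-VP16 against the empty vector (adjusted p = 0.009 with the block). Yy1, a zinc-finger factor, fell by 0.63 in FoxD3-VP16 against FoxD3 (limma adjusted p = 0.0385 without the block).

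Assembly genes were counted in a pair of lists. For complex IV, 22 were tested, and with the block 3 were higher and 7 lower in FoxD3-VP16 against FoxD3, 1 and 1 in FoxD3-VP16 against empty vector, and 5 and 0 in FoxD3 against empty vector. The 3 and 7 are 13.6% and 31.8% of the list, and the medians were -0.09, -0.01 and 0.02. Cox20, which handles the mitochondrially encoded subunit Cox2, rose by 0.50 in FoxD3-VP16 against FoxD3 (limma adjusted p = 0.0414), whereas Sco2 and Cox11, copper chaperones, fell by 0.63 and 0.55 (adjusted p = 0.00151 and 0.00128 with the block). For complexes I, II, III and V together, 21 were tested and the block called 2 higher and 3 lower, 1 and 0, and 1 and 3 in the same order of comparisons, with medians of -0.10, -0.13 and -0.01. The 2 and 3 are 9.52% and 14.3%, below the shares of all genes in FoxD3-VP16 against FoxD3. In FoxD3 against empty vector the 1 and 3 are 4.76% and 14.3%, beside 11.8% and 9.21% of all genes. In FoxD3-VP16 against empty vector 17 of the 21 changes were negative, beside 5779 of 10916 over all genes. Sdhaf4, needed to join the catalytic subunits of complex II, was 0.96 higher in FoxD3-VP16 than in FoxD3 (limma adjusted p = 0.0196), and Bcs1l, which inserts the Rieske protein into complex III, was 0.58 lower on the log2 scale (limma adjusted p = 0.0311).

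Of 76 mitochondrial ribosomal proteins the block called 4 higher and 10 lower in FoxD3-VP16 against FoxD3, 1 and 1 in FoxD3-VP16 against empty vector, and 9 and 3 in FoxD3 against empty vector. These are 5.26% and 13.2%, 1.32% and 1.32%, and 11.8% and 3.95% of the list, at or below the shares of all genes, and the medians were 0.03 in each comparison. Mrps34 fell by 0.71 in FoxD3-VP16 against FoxD3 (limma adjusted p = 0.00204) and Mrpl43 was 0.58 higher with FoxD3 than with the empty vector (limma adjusted p = 0.0172). Of 19 genes of glycolysis and lactate it called 1 and 5, 1 and 0, and 5 and 0, where 5 is 26.3%, with medians of -0.11, -0.01 and 0.21; Pfkfb4, a regulator of glycolytic flux, was 0.91 higher with FoxD3 than with the empty vector (limma adjusted p = 0.0414). Of 11 antioxidant enzymes it called 3 and 1, 2 and 0, and 1 and 1, with medians of 0.09, 0.19 and 0.08; Cat, the catalase, was 0.91 higher with FoxD3-VP16 than with FoxD3 (limma adjusted p = 0.00206).

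The remaining lists are given in the same order of comparisons, higher before lower, with the block. Among 22 genes of the citric acid cycle and pyruvate entry the counts were 3 and 2, 1 and 0, and 1 and 0, all below the shares of all genes, with medians of 0.08, 0.06 and 0.03; Idh2 was 0.33 higher with FoxD3-VP16 than with the empty vector (adjusted p = 0.0256 with the block). Among 12 mitochondrial carriers and porins they were 3 and 0, 1 and 0, and 1 and 0, with medians of 0.11, 0.10 and -0.02; the aspartate-glutamate carrier Slc25a12 rose by 0.51 in FoxD3-VP16 against FoxD3 (limma adjusted p = 0.0287). The 16 genes of cristae and fusion gave 3 and 2, 0 and 0, and 1 and 0, with medians of 0.04, 0.07 and 0.05; Mfn2, of outer membrane fusion, fell by 0.73 in FoxD3-VP16 against FoxD3 (limma adjusted p = 0.0165). The 12 genes of coenzyme Q synthesis gave 1 and 0, 0 and 0, and 0 and 1, with medians of -0.04, -0.10 and 0.02. The 21 of protein import gave 2 and 4, 0 and 4, and 0 and 3, with medians of -0.15, -0.10 and 0.04, the 4 being 19.0% of them; the import receptor Tomm70a fell by 0.43 with FoxD3-VP16 and by 0.52 with FoxD3 against the empty vector (adjusted p = 0.029 and 0.00571 with the block).

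Markers of other cells were measured because muscle and brown fat express Ppargc1a and some, not all, of the tissue forms of complex IV. None of 10 muscle markers and none of 3 brown fat markers lay above the dim limit, and the summed intensity of the brown fat markers was 31.7 to 55.3 in FoxD3-VP16 cells, 43.1 to 49.5 in FoxD3 cells and 7.88 to 67.3 in empty-vector cells. The sum of 7 fibroblast markers, 4 of them above the limit and Col3a1, Lum and Dcn below it, was 812.5 to 1151 in FoxD3-VP16 cells, 1069 to 1381 in FoxD3 cells and 409.9 to 605.9 in empty-vector cells. It moved with both transgenes, and its part in the members' changes was not tested. Of the leukocyte markers 1 of 4 lay above the limit and of the endothelial markers 0 of 4.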

How the data were processed

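Per the labels, RNA of the 12 samples was amplified, biotinylated and read on 1-colour arrays. The deposited values give every one of 45101 probe sets an intensity on a linear scale; MAS5 is named per the submitters' processing notes, version not given. The mean intensity without the lowest and highest 2% of the deposited values was 500.003 to 500.004 on each array.

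From them log2(intensity + 16) was computed, which understates changes of dim genes, and quantile normalization applied, since medians of the deposited values on the log2 scale spanned 0.79. The 64 control probe sets were left out; 34945 probe sets had 1 symbol in the platform table, 932 several and 9160 none listed, and the last 2 kinds were not used (10 carry a member's symbol beside another). The brightest probe set stood for a gene; 55 members had several, of 196 in all. Each comparison was fitted over all 12 arrays with limma 3.58.1 in R 4.3.3 (eBayes with trend, 9 residual and 3.98 prior degrees of freedom; 6 and 7.3 with the block), with Benjamini-Hochberg adjustment over 10916 genes. Depth has no meaning for arrays, whose number limits the precision. Detection calls were not used.

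The replicate numbers pair the arrays by correlation alone, not by the labels: deviations from group means correlated at 0.369 to 0.672 in all 12 same-numbered pairs, 0.37 to 0.536 in 6 pairs of numbers 3 and 4, and -0.511 to 0.118 in 30 other pairs. The block stands beside each result whose call it changes. The fits were tested on simulated data with known changes, independent normal noise and additive effects of the replicate number. Such data meet the assumptions of the block, so they cannot show how it treats the uneven pairs seen here.

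Members and lists were chosen with earlier results of these data known. Named members are the regulators, Cycs, Cyc1, complex II and the paired forms of complex IV, up to 12 called members per comparison and fit, and the brightest and most changed member of each complex; of each list, up to 2 called genes in each direction were eligible. Ndufs5, Ndufs8 and Cox7c on the arrays numbered 1, and the genes holding a motif, were named after their values were seen. The changes of Mitf were given outside these rules. Plotting used Python 3.11.15 with matplotlib 3.10.9.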

Additional observations from a re-analysis of the deposited data

Results flagged for a closer look

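In each group of 4 arrays, the highest or lowest array was marked where its gap to the nearest other was larger, as a share of the group's range, than Dixon's critical value for 4 samples. This was so in 31 of 147 groups (49 named members in 3 groups each), where chance marks about 1 in 20; values are log2(intensity + 16). Array 1 was the marked array in all but 2 of them.

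In FoxD3-VP16 cells array 1 was lowest for Sdhb (13.0), Cox4i1 (13.45), Cox6b1 (13.7), Cox7a1 (4.327), Cox7a2 (14.09), Ndufb3 (11.57) and Ndufa6 (12.17), and highest for Cox7c (9.272).

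In FoxD3 cells array 1 was lowest for Sdha (12.05), Cox4i1 (13.66), Cox6b1 (13.79), Cox7a1 (4.164), Cox7a2 (14.14), Cox7a2l (11.66), Ndufb10 (10.75), Ndufb3 (11.39) and Ndufa6 (11.88). It was highest for Ndufb7 (12.87), Atp5h (14.16), Ndufaf8 (11.39) and Cox7c (8.756). The exceptions were Ndufa5, highest on FoxD3 array 3 (13.02), and Ndufaf3, highest on FoxD3 array 2 (10.02).

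In empty-vector cells array 1 was lowest for Sdhb (13.06), Cox6b1 (13.76), Cox7a2 (14.12), Ndufb10 (10.63) and Ndufa6 (11.89), and highest for Sdhc (11.84), Cox8c (8.754) and Atp5h (13.95).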

How the results depend on the processing

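The median changes of the members kept their sign in 8 alternatives each, leaving out the arrays numbered 1 among them, which was chosen after seeing the data like the settings that join the block with another change. Values as deposited gave medians of 0.10, 0.06 and 0.04 for FoxD3-VP16 against empty vector, FoxD3 against empty vector and FoxD3-VP16 against FoxD3. Counts of members called moved more, and are given in that order, against 0, 0 and 2. The share of all genes called was counted only for the main fits with and without the block. Under the other settings the counts therefore cannot be read as a result about the members. The replicate block gave 10, 11 and 11, the block with values as deposited 9, 11 and 10, the block with the mean of all probe sets 11, 8 and 15, the block without the arrays numbered 1 15, 9 and 9, and array weights 28, 19 and 17. Without the arrays numbered 1 the counts were 3, 1 and 3. Values as deposited, a pseudocount of 64 and the mean of all probe sets each gave 1 member in FoxD3 against empty vector and 1 in FoxD3-VP16 against FoxD3, and fitting only the 8 arrays compared gave 1 in FoxD3-VP16 against FoxD3. Leaving out 1 array at a time gave 0 to 0, 0 to 1 and 1 to 2, and with the block 2 to 13, 3 to 16 and 6 to 14; with the block the fewest came without FoxD3-VP16 array 3 or empty-vector array 3 (2 each, FoxD3-VP16 against empty vector), empty-vector array 3 or 4 (3 each, FoxD3 against empty vector) and FoxD3 array 2 or FoxD3-VP16 array 3 (6 each, FoxD3-VP16 against FoxD3). Without FoxD3 array 2 or 4 the block gave 5 each for FoxD3 against empty vector, and without FoxD3 array 1 or 4 it gave 7 each for FoxD3-VP16 against FoxD3. The block changed the calls named in the report and no other call of a member.

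Leaving out an array can change which probe set of Ppargc1a is brightest, since the top 2 have means of 10.29 and 10.28; FoxD3 minus empty vector was -0.87 without FoxD3-VP16 array 1. With the block Ppargc1a and Ppargc1b were called in 16 of 16 alternatives for FoxD3 against empty vector and for FoxD3-VP16 against FoxD3, and Tfam in 12 of 16 for FoxD3 against empty vector. Calls of the other members held less evenly over these 16. They held in 5 (Cox6b1) to 16 (Uqcrh and Ndufb10) for FoxD3-VP16 against empty vector. For FoxD3 against empty vector it was 5 (Ndufb3) to 14 (Cyc1). For FoxD3-VP16 against FoxD3 it was 6 (Ndufs4) to 16 (Ndufb3 and Ndufa6). Signs turned as follows, and the cause was not tested. Atp5h in FoxD3 minus empty vector was -0.0463, and Ndufs3 in FoxD3-VP16 minus FoxD3 -0.0084, without FoxD3 array 1, the other end of the range being 0.411 for Atp5h (without empty-vector array 1) and 0.413 for Ndufs3 (without FoxD3-VP16 array 1); Ppargc1a in FoxD3-VP16 minus empty vector was -0.223 with array weights. Tfam in FoxD3-VP16 minus FoxD3 was -0.337 as the mean of its probe sets, with or without the block, -0.00304 without the arrays numbered 1, with or without the block, -0.0148 with array weights and -0.00483 with the block and without FoxD3-VP16 array 1. Signal over background was not measured here, so dim members such as Cox6a2 have the least certain values.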
